A study of Mus musculus with 42 samples.

Results

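Fkbp5, Sgk1, Tsc22d3, Zbtb16, Pdk4, Sult1a1, Nfkbia and Cdkn1a are glucocorticoid-responsive genes, and their levels were read in mouse striatum and hippocampus after PDE10 inhibition and under a PDE10A knockout label. The 8 genes were taken by name, through every probe set annotated to 1 of them and to no other gene, and all 8 were measured. They are 8 of the 18193 genes tested and hold 20 of the 34945 probe sets with a single gene. Fkbp5 had 3 of these probe sets, Tsc22d3 had 4, Zbtb16 had 3, Nfkbia had 5, Cdkn1a had 2, and Sgk1, Pdk4 and Sult1a1 had 1 each. Each gene is given by its probe set with the highest mean, on the log2 scale of the deposited values, where a difference of 1 is a doubling.

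All mice were C57BL6, and each array held total RNA of 1 snap-frozen, dissected region. The striatal groups were PDE10A KO mice given a PDE10 inhibitor (4 arrays), PDE10A KO mice given vehicle (5), WT mice given the inhibitor (6) and WT mice given vehicle (5). The hippocampal groups were KO inhibitor (5), KO vehicle (5), WT inhibitor (6) and WT vehicle (6). The sources used here give neither the inhibitor's name nor its dose, its schedule or the interval before dissection, nor the age of the mice, the deleted exons or how the animals were handled. No label ties the arrays of a group to separate animals, so the p-values measure the spread between these 42 arrays, which may be technical.

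Glucocorticoids are stress hormones that enter cells and bind the glucocorticoid receptor (Nr3c1) and, with higher affinity, the mineralocorticoid receptor (Nr3c2), which then act as transcription factors on DNA. Hippocampal neurons are known for carrying both receptors, and the genes examined here are widely read as transcriptional responses to the hormone in brain. PDE10A is a phosphodiesterase that breaks down cAMP and cGMP and is concentrated in the projection neurons of the striatum.

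Promoter sequences are shown for the 3 members with a window that held the long binding sequence that names its best-known regulator. They are RefSeq windows on GRCm38.p6, from 250 bases before to 50 bases after an annotated start, which were found for 7 of the 8 members (15 windows). Each is printed 5′ to 3′ on the strand of the gene, with the match in capitals. Both strands were searched. Each match was in 1 window only, of 6 windows for Sgk1, 2 for Cdkn1a and 1 for Nfkbia. For Sgk1 (chr10:21993640-21993939, plus strand) the capitals mark a match to the palindromic glucocorticoid receptor sequence, AGAACA and TGTTCT with any 3 bases between them, whose first base lay at position -189 relative to the start base. For Nfkbia (chr12:55492598-55492897, minus strand) they mark and spell the NF-kappaB sequence searched, at position -29. For Cdkn1a (chr17:29090729-29091028, plus strand) they mark paired p53 cores, CATG and CATG with any 6 bases between them, at position -48.
Sgk1: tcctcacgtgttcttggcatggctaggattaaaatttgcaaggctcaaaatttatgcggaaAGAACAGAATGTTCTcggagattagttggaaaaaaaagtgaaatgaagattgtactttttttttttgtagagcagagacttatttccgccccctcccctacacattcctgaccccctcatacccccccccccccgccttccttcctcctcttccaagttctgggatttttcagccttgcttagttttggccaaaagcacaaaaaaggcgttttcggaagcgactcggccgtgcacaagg
Nfkbia: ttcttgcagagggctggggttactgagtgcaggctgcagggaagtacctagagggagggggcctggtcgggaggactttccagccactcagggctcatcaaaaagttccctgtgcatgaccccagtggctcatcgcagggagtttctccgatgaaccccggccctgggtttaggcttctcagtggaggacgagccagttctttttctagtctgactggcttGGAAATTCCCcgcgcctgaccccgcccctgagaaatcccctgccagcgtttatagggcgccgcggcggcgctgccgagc
Cdkn1a: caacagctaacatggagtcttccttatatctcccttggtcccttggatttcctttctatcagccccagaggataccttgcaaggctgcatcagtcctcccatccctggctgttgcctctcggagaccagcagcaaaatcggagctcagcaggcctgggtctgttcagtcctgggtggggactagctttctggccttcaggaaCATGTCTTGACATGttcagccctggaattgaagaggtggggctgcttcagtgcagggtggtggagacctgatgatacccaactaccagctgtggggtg
The receptor palindrome was in 3 of 32851 windows of this length over all genes (0.00913%), the NF-kappaB sequence in 29 (0.0883%) and the paired p53 cores in 234 (0.712%). The receptor hexamer AGAACA on its own, which also lies within the palindrome, was in 19.0% of all windows and in 5 of the 15 member windows, those of Sult1a1, Sgk1 and Tsc22d3. These matches describe letters in a window and not binding.

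Labels and tissue were checked first. Pde10a signal was not lower under the KO label: in striatum it ran from 12.08 to 12.99 with KO inhibitor, 12.13 to 12.71 with KO vehicle, 12.02 to 12.70 with WT inhibitor and 12.06 to 12.65 with WT vehicle. In hippocampus its means were higher under the KO label. It ran there from 9.51 to 9.81 with KO inhibitor, 9.04 to 10.16 with KO vehicle, 8.54 to 9.88 with WT inhibitor and 8.94 to 9.04 with WT vehicle. The labels do not say which part of the gene was deleted, so this signal may not check the deletion, and the KO groups are called labelled KO throughout. A score was made from 15 genes of chromosome 17, where Pde10a lies, taken for their genotype difference in the other region, with Pde10a and the members left out. It is 0 at the WT vehicle median and 1 at the KO inhibitor median of a region, and it put 8 arrays on the other side of 0.5 from their label. These were KO vehicle 25 and WT inhibitor 13, 14 and 15 in striatum, and KO vehicle 25 and 26 and WT inhibitor 12 and 14 in hippocampus, numbered as in their titles. None were WT vehicle or KO inhibitor arrays, but those groups set the scale, so the score cannot check them as it checks the others. Same-numbered arrays could also differ, as for WT inhibitor 12 with 0.08 in striatum and 1.03 in hippocampus. The score therefore does not settle the genotype of an array. Fkbp5 and Cdkn1a lie on chromosome 17 as well. All 8 measured markers of striatal projection neurons were higher in striatum (median log2 difference 4.31), and 8 of 9 hippocampal neuron markers were lower there (median -3.02). Hippocampal WT inhibitor array 13 stood apart, with a mean of the hippocampal neuron markers of 7.64 against 9.03 to 9.59 on the other 21 hippocampal arrays.

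No member passed the test for an inhibitor or genotype effect in either region. In limma with Benjamini-Hochberg adjustment over all genes at 0.05, 0 of 8 members were called in each of the 10 comparisons within a region. In striatum the share of all genes called was 0.181% for the inhibitor in WT mice, 0.137% for the KO label under vehicle, 0% for the inhibitor in labelled KO mice, 0% for the difference between these inhibitor effects and 0.11% for labelled KO with inhibitor against WT with vehicle. In hippocampus it was 0% in the first 4 of these comparisons and 0.033% in the last, so a count of 0 among 8 genes was at the background. At an unadjusted p under 0.05 the same comparisons held 2, 1, 0, 2 and 1 members in striatum (9.57, 5.94, 1.41, 7.4 and 6.26% of all genes) and 1, 1, 1, 1 and 4 members in hippocampus (10.7, 6.62, 3.82, 11.8 and 7.33%). All 10 counts were also 0 without the 8 arrays of doubtful score and on leaving out any 1 array. The comparisons share arrays, the WT vehicle groups among them, so their values are given side by side and not added up.

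**Figure D1:**
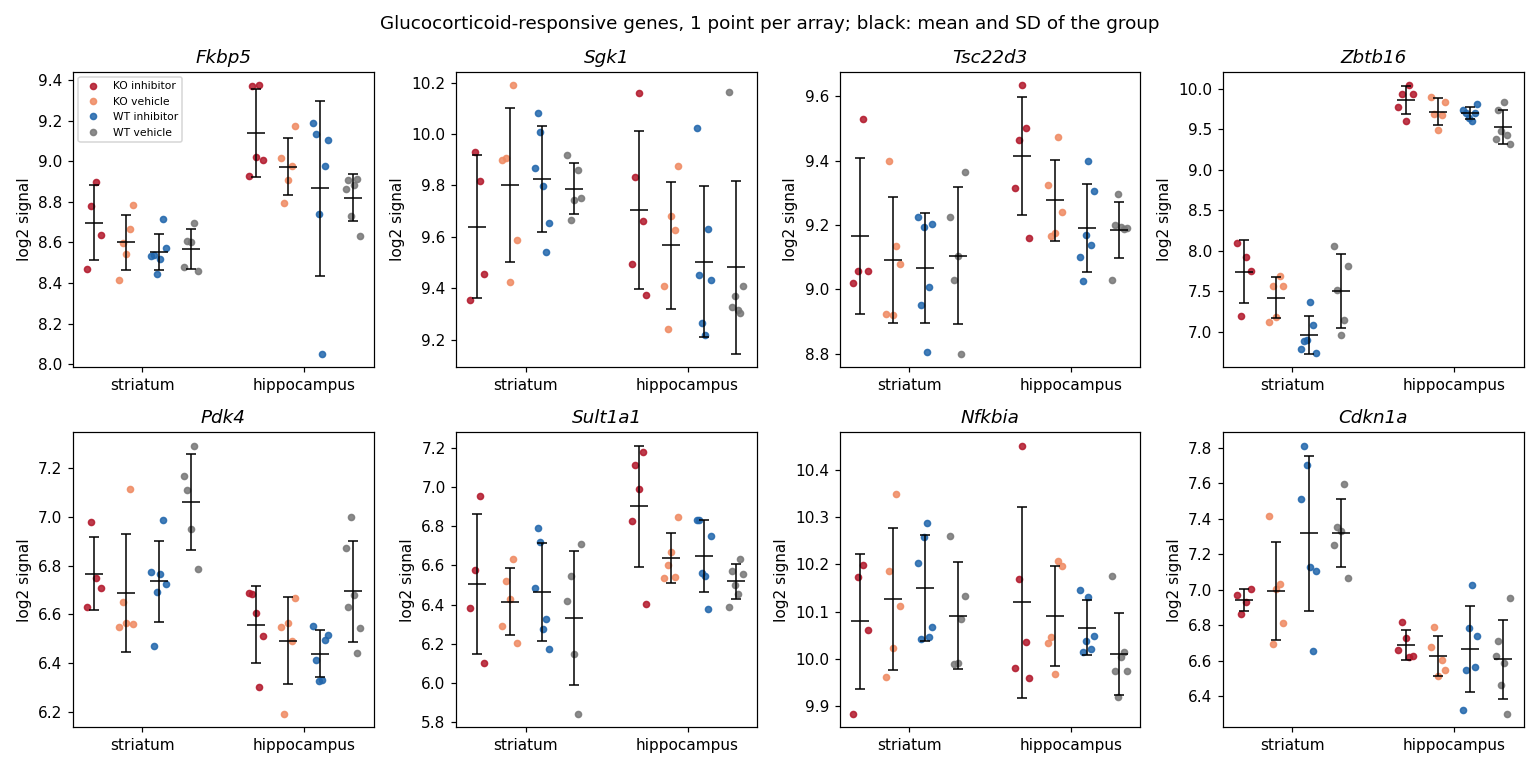
Log2 signal of each gene on each array, 1 point per array, with the striatal groups on the left of each panel and the hippocampal groups on the right. Black bars are group means and SD. Zbtb16 is the gene whose striatal arrays (6.73 to 8.09) all sit below the hippocampal ones (9.32 to 10.04), while groups within a region overlap for most genes.

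The receptors were measured beside their targets. Nr3c1 averaged 9.64 ± 0.29 and 9.69 ± 0.15 in striatum with inhibitor and vehicle under the KO label (SD, n = 4 and 5), and 9.49 ± 0.14 and 9.62 ± 0.22 in WT (n = 6 and 5). Its WT inhibitor difference was -0.13 ± 0.11 in striatum and -0.06 ± 0.08 in hippocampus (SE). Nr3c2 differed with inhibitor in WT by 0.05 ± 0.08 in striatum and -0.28 ± 0.20 in hippocampus. Array 13 set the hippocampal value, with Nr3c2 at 8.43, and without it the difference was -0.01 ± 0.10. Neither receptor, and 0 of the 10 measured genes on the list of receptors, chaperones, coregulators and steroid-converting enzymes, passed in any of the 10 comparisons.

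Fkbp5, which encodes the cochaperone that lowers the receptor's hormone affinity and is itself induced by the hormone, barely differed with the inhibitor in WT striatum. Its signal there was 8.45, 8.54 and 8.72 with inhibitor (lowest, median and highest of 6), against 8.48, 8.61, 8.60, 8.69 and 8.46 with vehicle. The groups overlapped throughout, and the difference was -0.01 ± 0.08 (SE) with a 95% interval of -0.18 to 0.15. In hippocampus the labelled KO inhibitor arrays read 8.93, 9.37, 9.02, 9.37 and 9.0, and the KO vehicle arrays 9.02, 8.79, 8.91, 8.98 and 9.17. WT inhibitor arrays there ran from 8.05 through a median of 9.04 to 9.19, and WT vehicle arrays from 8.63 through 8.87 to 8.91. All 5 labelled KO inhibitor values lay above all 6 WT vehicle values, by a narrow margin, and 1 of the 8 members had such a separation in this comparison, as did 1.15% of all genes. The difference was 0.32 ± 0.15 (limma adjusted p = 0.671).

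The level of Fkbp5 in hippocampus moved with markers of hippocampal neurons, measured as the mean of 9 genes. Over 22 arrays, deviations from group means correlated at r = 0.94 and rho = 0.87, with permutation p = 2e-05 and 5e-05 (two-sided; Benjamini-Hochberg 0.00256 and 0.0064 over 128 relations of 8 members with 8 marker lists in 2 regions). The array numbered 13 was lowest on both measures, with Fkbp5 at 8.05. Without it r was 0.84 and rho 0.79 (adjusted permutation p = 0.0179 and 0.0384, n = 21), and in the main set r was 0.84 after leaving out the 2 arrays farthest from the marker median. In bulk tissue, fewer cells of a type and less RNA per cell cannot be told apart.

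The non-member genes most like Fkbp5 over the 22 hippocampal arrays were Slit1, Pkp2, Ppm1e and Prdm8, each with r = 0.96. Without array 13 they were at 0.93, 0.91, 0.91 and 0.91. Over the 20 striatal arrays the most like were Cnppd1 (0.89), Nrxn3 (0.88), Kcna5 (0.86) and Srpk1 (0.86). These 4 had r of -0.03, 0.06, 0.03 and -0.52 in hippocampus, and 0.06, 0.49, 0.17 and 0.03 there without array 13. Of the hippocampal 4, Pkp2 had r = 0.60 in striatum and the others -0.19, -0.25 and -0.50.

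Tsc22d3 encodes GILZ, a leucine zipper protein through which glucocorticoids restrain inflammatory transcription factors. In hippocampus it read 9.31, 9.46, 9.63, 9.50 and 9.16 with inhibitor under the KO label, and 9.32, 9.17, 9.17, 9.47 and 9.24 with KO vehicle. WT inhibitor arrays ran from 9.03 to 9.40 (median 9.15), and WT vehicle arrays from 9.03 to 9.30 (median 9.19). These ranges overlapped. Labelled KO with inhibitor stood 0.23 ± 0.08 above WT vehicle, with an unadjusted p of 0.00823 and an adjusted p of 0.459. In striatum the difference with inhibitor was 0.07 ± 0.13 under the KO label and -0.04 ± 0.12 in WT.

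Nfkbia encodes I-kappa-B-alpha, the inhibitor that holds NF-kappaB in the cytoplasm, and is induced by glucocorticoids and by NF-kappaB itself. It had the narrowest spread of the members in striatum, from 9.88 to 10.35 over 20 arrays, and ran from 9.92 to 10.45 over 22 hippocampal arrays. Its 4 pairwise differences lay between -0.05 and 0.06 in striatum and between 0.03 and 0.11 in hippocampus, with 95% intervals reaching from -0.23 to 0.26 at most. None of the 12 other NF-kappaB target genes on the list passed within a region.

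Sgk1, a serine/threonine kinase that regulates ion channels and transporters, had group SDs from 0.10 in WT vehicle striatum to 0.34 in WT vehicle hippocampus. Striatal arrays with inhibitor read 9.35, 9.93, 9.82 and 9.46 under the KO label, against 9.90, 9.91, 9.43, 10.19 and 9.59 with KO vehicle. WT striatal arrays ran from 9.54 to 10.08 with inhibitor (median 9.83), against 9.67, 9.75, 9.75, 9.86 and 9.92 with vehicle, in rising order. All 4 ranges overlapped. The WT inhibitor difference was 0.04 ± 0.13 in striatum and 0.02 ± 0.16 in hippocampus, where the 95% interval ran from -0.31 to 0.35.

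Deviations of Sgk1 and Nfkbia from their group means were positively correlated, short of the adjusted threshold. The correlation was 0.63 in striatum (rho 0.60, permutation p = 0.0124, n = 20) and 0.69 in hippocampus (rho 0.49, permutation p = 0.00144, n = 22). Neither passed Benjamini-Hochberg adjustment over the 56 pairs of members in the 2 regions (0.173 and 0.0806). Without hippocampal WT inhibitor 13 the hippocampal r was 0.75 and passed (adjusted permutation p = 0.0319, n = 21), while rho was 0.59 and did not (adjusted 0.2). Hippocampal KO inhibitor 36 was high for both, at 10.16 for Sgk1 and 10.45 for Nfkbia, and so was hippocampal WT vehicle 1, at 10.16 and 10.18. Among all 28 pairs of members, 18 correlations were positive in striatum and 15 in hippocampus, with medians of 0.18 and 0.05.

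Choroid plexus markers varied widely between striatal arrays, their mean running from 5.16 to 6.80 on 13 arrays and from 8.22 to 10.02 on the other 7. Sgk1 ran from 9.35 to 10.01 on the 13 (median 9.75) and from 9.67 to 10.19 on the 7 (median 9.91). Since the arrays fall into separate sets, split here after the values were seen, no r is given over all 20. Within the 13 the correlation of Sgk1 with the marker mean was 0.03 (rho 0.08, permutation p = 0.967), and the 7 were higher in median. In hippocampus the correlation was 0.54 (rho 0.52, permutation p = 0.0139, adjusted 0.214, n = 22). The part of these cells in the Sgk1 signal was not tested.

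The non-members most like Sgk1 were Cd59a (0.87), Fkbp9 (0.85), F11r (0.85) and Tnni3 (0.82) in striatum, and Apeh, Fam107b, Abcc4 and Rp2 (0.85 to 0.86) in hippocampus. Cd59a, Fkbp9 and F11r kept r of 0.67, 0.61 and 0.68 in the other region, while Tnni3 was at -0.09. The hippocampal 4 had r of 0.43, 0.36, 0.67 and 0.44 in striatum. For Tsc22d3 they were Hps5, Selenop, Golga7 and Ermp1 in striatum (0.81 to 0.87), and Mettl16, Ndufaf5, Mrps36 and Uba6 in hippocampus (0.77 to 0.78). In the other region Hps5, Selenop, Golga7 and Ermp1 had r of 0.24, 0.47, -0.18 and -0.38. Mettl16, Ndufaf5, Mrps36 and Uba6 had r of 0.29, 0.39, 0.25 and 0.38 there. All were picked for a high r in their own region, so only the other region is free of that choice.

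Zbtb16 encodes the zinc finger transcription factor PLZF, a strong hormone response gene in several tissues. WT striatal arrays read 6.79, 6.89, 6.90, 7.37, 7.08 and 6.73 with inhibitor, against 8.06, 7.52, 6.96, 7.15 and 7.81 with vehicle. The inhibitor arrays were low, with 4 of 6 below the lowest vehicle array, and the ranges overlapped. The difference was -0.54 ± 0.18, a 1.45-fold lower signal (limma unadjusted p = 0.00843, adjusted 0.301).

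Under the KO label striatal Zbtb16 read 8.09, 7.20, 7.92 and 7.75 with inhibitor, against 7.12, 7.56, 7.19, 7.68 and 7.56 with vehicle, a difference of 0.32 ± 0.20. The WT minus labelled KO inhibitor effect was -0.86 ± 0.28 (unadjusted p = 0.00552, adjusted 0.514). In hippocampus WT arrays ran from 9.60 to 9.81 with inhibitor (median 9.70), and from 9.32 to 9.83 with vehicle (median 9.45), a difference of 0.17 ± 0.09 (adjusted p = 0.498). Labelled KO with inhibitor stood 0.33 ± 0.09 above WT vehicle there (adjusted p = 0.305).

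Striatal Zbtb16 tended to rise with markers of glutamatergic neurons, a cell type of cortex and hippocampus. The mean of 7 such markers ran from 5.61 to 7.47 in WT inhibitor arrays, against 5.90 to 8.22 in WT vehicle arrays, and 7 of 7 markers had a negative difference (median -1.27) with none passing. It ran from 6.02 to 8.97 with KO inhibitor and 7.34 to 7.95 with KO vehicle. Over the 20 striatal arrays, deviations of Zbtb16 and of this mean correlated at r = 0.79 and rho = 0.79 (permutation p = 0.00107 and 0.00075). Adjusted over 128 relations these permutation p-values were 0.0529 and 0.032, so only rho passed. Without the 2 farthest arrays r was 0.71. Over the same 20 arrays Zbtb16 had r = 0.56 with hippocampal neuron markers and -0.51 with striatal projection neuron markers. With the marker mean as a covariate the WT inhibitor difference of Zbtb16 was -0.19 (adjusted p = 0.587). With array weights it was -0.70 and passed (adjusted p = 0.0437).

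**Figure D2:**
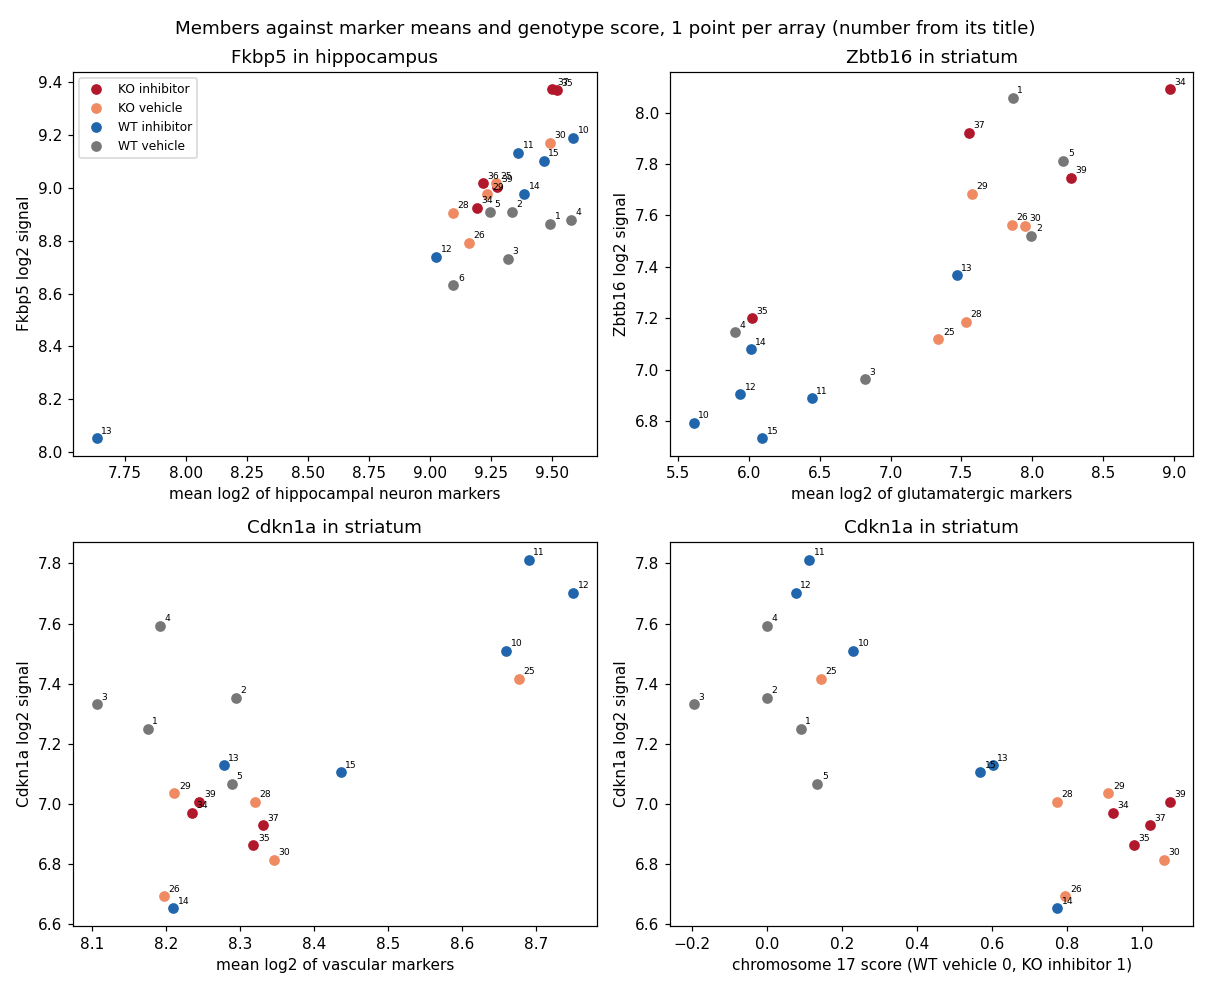
Log2 signal of a gene on each array (vertical axes) against a marker mean in log2 units or the chromosome 17 score (horizontal axes), with the number from the array's title beside each point. Fkbp5 follows hippocampal neuron markers, array 13 lies lowest at 7.64 and 8.05, and Zbtb16 tends to rise with glutamatergic markers in striatum. The lower panels show striatal Cdkn1a against vascular markers, with 4 arrays at 8.66 to 8.75, and against the score.

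Pdk4 encodes the mitochondrial kinase that inactivates pyruvate dehydrogenase and spares glucose. WT striatal arrays ran from 6.47 to 6.99 with inhibitor (median 6.74), against 7.17, 7.11, 6.95, 7.29 and 6.79 with vehicle. KO inhibitor arrays read 6.63, 6.98, 6.75 and 6.71, and KO vehicle arrays 6.55, 6.65, 6.56, 7.11 and 6.56. WT vehicle held the highest mean, 7.06 ± 0.20 (SD), and its range overlapped with each of the others.

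The inhibitor difference of Pdk4 in WT striatum was -0.33 ± 0.11 (limma adjusted p = 0.298), and the KO label difference under vehicle was -0.38 ± 0.12 (adjusted p = 0.364). In WT hippocampus the inhibitor arrays ran from 6.33 to 6.55 (median 6.45), against 6.44 to 7.0 for vehicle (median 6.65), a difference of -0.26 ± 0.09 (adjusted p = 0.369). Under the KO label the inhibitor differences were 0.08 ± 0.12 in striatum and 0.07 ± 0.10 in hippocampus. Over 10 alternative settings the striatal WT difference ran from -0.44 to -0.18, and with 1 array left out from -0.40 to -0.27, and none passed. The -0.18 came with the vascular marker mean as a covariate, a fit chosen after the data were seen.

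Sult1a1, a cytosolic sulfotransferase that conjugates phenols and catecholamines, read 6.83, 7.11, 6.99, 7.18 and 6.40 in hippocampus with KO inhibitor, and 6.54, 6.60, 6.67, 6.54 and 6.85 with KO vehicle. WT inhibitor arrays ran from 6.38 to 6.83 (median 6.66), and WT vehicle arrays from 6.39 to 6.64 (median 6.53). Of the 5 KO inhibitor arrays 4 lay above every WT vehicle array, and array 39 lay at the low end of theirs. The difference between these groups was 0.38 ± 0.11 (unadjusted p = 0.00191, adjusted 0.311), and that with inhibitor under the KO label 0.26 ± 0.11 (adjusted p = 0.993). In striatum its 4 pairwise differences lay between 0.08 and 0.17.

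Cdkn1a encodes p21, which stops the cell cycle and is induced by p53 and by glucocorticoids. Striatal arrays read 6.97, 6.86, 6.93 and 7.01 with KO inhibitor, and 7.42, 6.69, 7.01, 7.03 and 6.81 with KO vehicle. WT inhibitor arrays read 7.51, 7.81, 7.70, 7.13, 6.65 and 7.10, and WT vehicle arrays 7.25, 7.35, 7.33, 7.59 and 7.07. All KO inhibitor values lay below all WT vehicle values, a separation that 1 of the 8 members and 2.67% of all genes had in this comparison, yet the difference of -0.38 ± 0.18 had an adjusted p of 0.797. The other Cdkn1a probe set differed by only -0.06 ± 0.15 in this comparison. For the KO label under vehicle in striatum it differed by -0.09 ± 0.14, so the lower values under the KO label rest on the probe set used.

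The arrays of doubtful genotype score moved the Cdkn1a values. KO vehicle 25 was the highest of its group, and WT inhibitor 13, 14 and 15 were the lowest of theirs. Without these 4 arrays the KO label difference of Cdkn1a in striatum was -0.43 ± 0.10 (adjusted p = 0.0607), against -0.33 ± 0.17 with all arrays (adjusted p = 0.897). The WT inhibitor difference was then 0.36 ± 0.11 (adjusted p = 0.0855), against 0.00 ± 0.17 with all arrays. The 3 WT inhibitor arrays left in it, 10, 11 and 12, were those with high vascular markers, and with the vascular marker mean as a covariate the difference over all arrays was -0.41 ± 0.14 (adjusted p = 0.623). Cdkn1a lies on the chromosome whose genes made the score, so leaving out arrays by that score is not independent of its level. The values without the 4 arrays are therefore no separate test of a Cdkn1a difference.

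The vascular marker mean was high on 4 striatal arrays, WT inhibitor 10, 11 and 12 and KO vehicle 25, at 8.66 to 8.75, and lay between 8.11 and 8.44 on the other 16. Cdkn1a ran from 7.42 to 7.81 on the 4 and from 6.65 to 7.59 on the 16. Among the 16, a set split off after the values were seen, r was 0.13 (rho = 0.14, permutation p = 0.739) over their narrower marker range. No r is given over all 20, as the arrays fall into separate sets. The part of vascular cells in the Cdkn1a signal was not tested. None of the 14 other p53 targets passed in any comparison within a region.

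**Figure D3:**
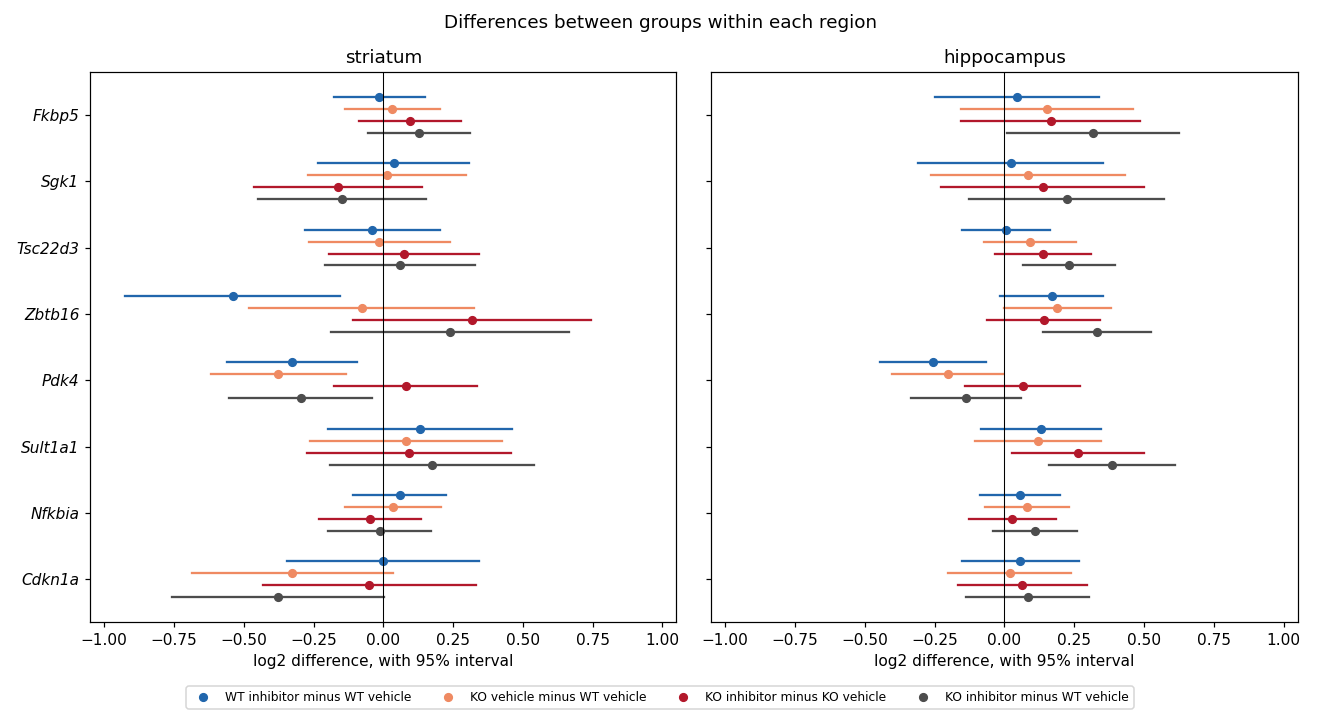
Log2 difference and 95% interval of each gene for 4 pairwise comparisons in striatum (left) and hippocampus (right). In striatum the WT inhibitor differences of Zbtb16 (-0.54) and Pdk4 (-0.33), the KO label difference of Pdk4 (-0.38) and the labelled KO inhibitor difference of Cdkn1a from WT vehicle (-0.38) lie low, and the labelled KO inhibitor differences from WT vehicle lie above 0 in hippocampus for 7 of 8 genes. None passed adjustment over all genes.

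In hippocampus the inhibitor difference under the KO label was positive for 8 of 8 members, from 0.03 for Nfkbia to 0.26 for Sult1a1. The median over members was 0.14, beside 0.01 over all genes. It was positive for 26 of 26 other glucocorticoid targets on the list (median 0.16). Without KO vehicle 25 and 26, the arrays of doubtful score here, 5 of 8 members (median 0.12) and 24 of 26 other targets (median 0.12) were positive, and Sgk1, Pdk4 and Nfkbia were at -0.023, -0.016 and -0.0051. None of the 34 passed with or without these arrays, and no test of the lists was made. The mean over the 26 ran from 8.47 to 8.85 with KO inhibitor, against 8.34 to 8.54 with KO vehicle, with arrays 35 and 37 the highest at 8.85 and 8.75.

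Some other lists also leaned to positive differences in that comparison, with all arrays, and some did not. Positive were 2 of 9 oligodendrocyte, 4 of 10 microglia, 5 of 10 astrocyte and 4 of 8 striatal projection neuron markers. The counts were 5 of 7 for glutamatergic markers, 12 of 17 for close relatives of the members and 8 of 14 for p53 targets. For NF-kappaB targets the count was 6 of 12, and for the list with the receptors 5 of 10. Hippocampal neuron markers, which Fkbp5 followed, were positive in 7 of 9 (median 0.12, means 9.19 to 9.52 with inhibitor and 9.09 to 9.49 with vehicle). Vascular markers were positive in 9 of 9 (median 0.09, means 8.10 to 8.35 with inhibitor and 8.05 to 8.22 with vehicle). Choroid plexus markers were positive in 9 of 10 (median 0.32, means 5.98 to 9.17 and 5.41 to 9.48). Early response genes, known to respond to handling and neuronal activity, were positive in 9 of 10 (median 0.12, means 7.41 to 7.73 and 7.26 to 7.64). Without KO vehicle 25 and 26 the positive counts were 7 of 9 hippocampal neuron, 8 of 9 vascular, 1 of 10 choroid plexus and 10 of 10 early response genes. Their part in the targets' values was not tested. In WT hippocampus the inhibitor difference was positive for 7 of 8 members (median 0.05) and for 12 of 26 other targets (median -0.01).

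In striatum the other targets had 17 of 26 positive inhibitor differences in WT (median 0.04) and 17 of 26 under the KO label (median 0.03), again with none passing. The early response genes had 1 of 10 positive differences in WT striatum (median -0.22), with group means of 7.62 ± 0.36 for inhibitor and 7.82 ± 0.34 for vehicle (SD, n = 6 and 5). The members had 3 of 8 positive there (median -0.01, beside 0.00 over all genes).

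Between regions the members differed more. In WT vehicle mice 3 of 8 members passed for striatum against hippocampus, where 33.9% of all genes were called, 15.9% higher and 17.9% lower. Over the mean of the 4 groups 7 of 8 passed, where 53.9% were called, 27.2% higher and 26.7% lower. The WT vehicle share was near the background, and the share over 4 groups was above it. The counts were 3 and 6 without the arrays of doubtful score, for which the share of all genes is not given here.

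Zbtb16 had the largest region difference of the 8 members. Striatal arrays read 8.06, 7.52, 6.96, 7.15 and 7.81 with WT vehicle, against 9.32 to 9.83 in WT vehicle hippocampus (median 9.45), without overlap, as for 2 of the 8 members and 21.2% of all genes. The difference was -2.03 ± 0.15, a 4.07-fold lower signal (limma adjusted p = 5.75e-14), and -2.29 ± 0.08 over 4 groups (adjusted p = 1.04e-25). All 3 of its probe sets were lower over 4 groups, by -2.29, -2.26 and -1.22. Across the 8 groups its level was lowest in WT inhibitor striatum (6.96 ± 0.23), followed by KO vehicle, WT vehicle and KO inhibitor striatum (7.42, 7.5 and 7.74), and then by the 4 hippocampal groups (9.53 to 9.86). Neighbours in that order overlapped except at the step between regions.

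Fkbp5, Sult1a1 and Tsc22d3 were lower in striatum over the 4 groups. Fkbp5 ran from 8.42 to 8.90 in striatum (median 8.58), and from 8.05 to 9.37 in hippocampus (median 8.95), a difference of -0.34 ± 0.06 (adjusted p = 1.26e-05). Sult1a1 differed by -0.25 ± 0.07 (adjusted p = 0.00316) and Tsc22d3 by -0.16 ± 0.05 (adjusted p = 0.00874). Of the other probe sets, 1 of 2 for Fkbp5 was lower as well (-0.26), and the third lay near the bottom of the scale, with a mean of 3.05. For Tsc22d3 1 of the other 3 was lower (-0.35).

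Cdkn1a, Pdk4 and Sgk1 were higher in striatum over the 4 groups. Cdkn1a ran from 7.07 to 7.59 in WT vehicle striatum, against 6.30 to 6.96 in WT vehicle hippocampus, without overlap. That difference was 0.71 ± 0.14 (adjusted p = 0.000114), and 0.50 ± 0.07 over 4 groups (adjusted p = 2.41e-07). The second Cdkn1a probe set was higher by 0.37. Vascular markers were also higher in striatum over 4 groups in 8 of 9 (median 0.17), and oligodendrocyte markers in 9 of 9 (median 0.57), and their part was not tested.

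Pdk4 was higher by 0.37 ± 0.11 in WT vehicle striatum (adjusted p = 0.00595) and by 0.27 ± 0.05 over 4 groups (adjusted p = 5.84e-05). Sgk1 differed by 0.20 ± 0.08 over 4 groups (adjusted p = 0.034). That call was lost, with differences of 0.18 to 0.19 and adjusted p between 0.0503 and 0.0706, on leaving out any of hippocampal KO vehicle 25 or 26, KO inhibitor 34 or 39 or WT inhibitor 13, or of striatal KO vehicle 29 or KO inhibitor 35 or 37. In WT vehicle mice Sgk1 differed by 0.31 ± 0.16 (adjusted p = 0.128), and by 0.44 ± 0.15 (adjusted p = 0.0176) without hippocampal WT vehicle 1. Nfkbia differed by 0.04 ± 0.04 over 4 groups (95% interval -0.04 to 0.12). Of its 5 probe sets 1 was lower (-0.14, adjusted p = 0.0214 over all probe sets).

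The mineralocorticoid receptor was lower in striatum and the glucocorticoid receptor did not pass. Nr3c2 was lower over 4 groups (difference -1.57 ± 0.09, adjusted p = 9.74e-19), and Hsd11b1, which regenerates active hormone within cells, differed by -1.61 ± 0.07 (adjusted p = 2.91e-22). Nr3c1 differed by 0.01 ± 0.05 (adjusted p = 0.851). Of the 10 measured genes on that list 1 was higher and 7 were lower. Of the 26 other targets 7 were higher and 8 lower, among them Cebpd (-2.25 ± 0.13) and Bcl6 (-1.45 ± 0.07). Close relatives of the members split likewise, with 4 of 17 higher, such as the kinase Sgk3 (1.09 ± 0.07), and 6 lower, such as the kinase Pdk2 (-0.46 ± 0.03). Of the p53 targets 6 of 14 were higher and 4 lower, and of the NF-kappaB targets 1 of 12 was higher and 3 lower.

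Arrays of the 2 regions carry the same numbers in their titles, and 20 numbers had an array in each. Over all genes, same-numbered arrays did not deviate together (r from -0.38 to 0.31, median -0.04). Nfkbia nevertheless deviated from its group mean in the same direction in both regions for 16 of 20 numbers. The correlation was r = 0.72 and rho = 0.77 (permutation p = 0.00177 and 0.00043, two-sided; Benjamini-Hochberg 0.0142 and 0.00344 over the 8 relations computed, whose genes were chosen with results known), and r was 0.68 without the 2 arrays farthest from the median. Of all genes 0.302% had an r at or above it. WT vehicle 1 was 0.17 above its group mean in striatum and 0.16 above in hippocampus, and KO vehicle 29 was 0.22 and 0.12 above, while KO vehicle 28 was at -0.10 and -0.12. Deviations had the same sign for 4 of 4 KO inhibitor, 3 of 5 KO vehicle, 5 of 6 WT inhibitor and 4 of 5 WT vehicle numbers.

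Sult1a1 followed with r = 0.48 (permutation p = 0.0721) and Fkbp5 with r = 0.37 (permutation p = 0.101), and 3.96% and 9.64% of all genes were at or above these. Sgk1, Tsc22d3, Pdk4 and Cdkn1a lay between -0.06 and 0.12, and Zbtb16 was at -0.38. Without the 6 numbers that hold an array of doubtful score, r for Nfkbia was 0.78 over 14 numbers (rho 0.80, permutation p = 0.00949, adjusted 0.0759), and for Fkbp5 0.75 (rho 0.63, permutation p = 0.05), or 0.52 without its 2 farthest arrays.

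**Figure D4:**
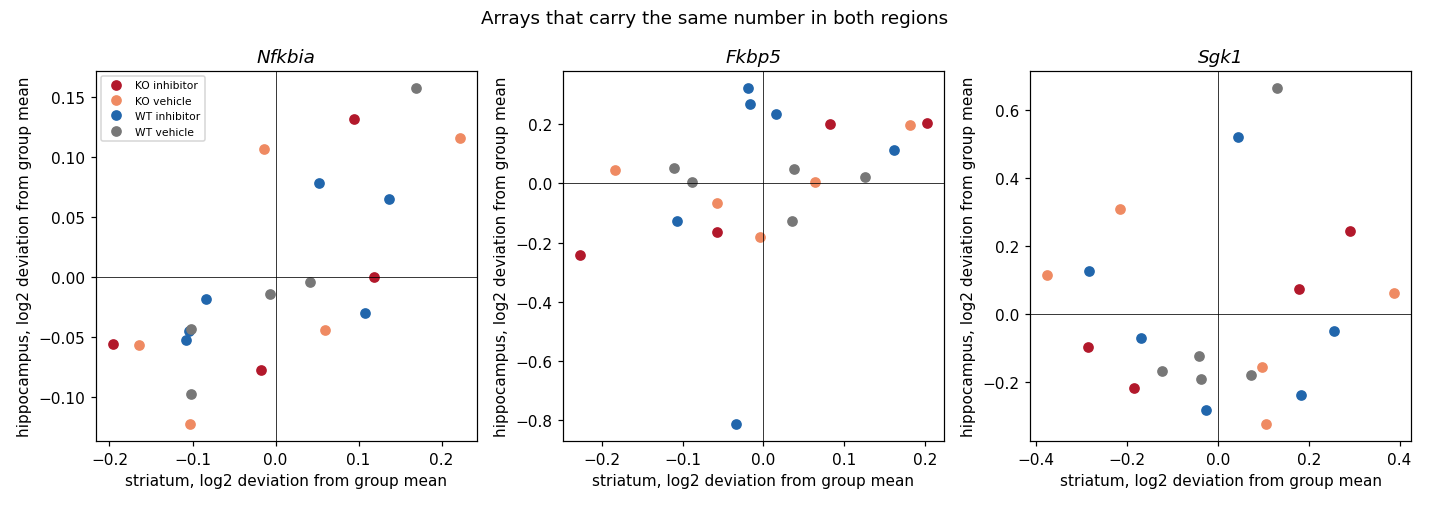
Deviation from the group mean in hippocampus against that in striatum, in log2 units, for the 20 numbers with an array in both regions. Nfkbia lies along the diagonal (r = 0.72), while Fkbp5 (0.37) and Sgk1 (0.07) scatter.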

How the data were processed

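Total RNA of dissected mouse striatum and hippocampus was measured on 42 Affymetrix arrays in 8 groups, which were read from the sample titles. The authors deposited log2 values for 45101 probe sets. RMA is the tool named in the submitters' processing notes, and it removes differences in total RNA between arrays. The deposited log2 values ran from 2.55 to 15.1, with array medians of 6.05 to 6.12, and no arrays were identical. Precision is limited by how many arrays a group has. The platform's annotation gave 34945 probe sets 1 gene, 932 several and 9160 none, beside 64 controls, and 34741 of the first were matched to the RefSeq table (GRCm38.p6). The 8 members, the gene lists and the tests were chosen with earlier results of these data known.

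A gene was represented by its probe set of highest mean. Differences were tested with limma's two-sided moderated test (version 3.58.1, R 4.3.3) on the 4 groups of a region, and on all 8 groups between regions, with Benjamini-Hochberg adjustment over 18193 genes and a threshold of 0.05. The fit was tested on simulated data. Correlations used deviations from group means and 100000 permutations within groups. Named were all 8 members, Nr3c1 and Nr3c2, per list and comparison up to 2 genes past the threshold with the smallest p, and the 4 genes most like Fkbp5, Sgk1 and Tsc22d3 in each region, clone and predicted names left out. Alternatives were the mean over probe sets, each probe set on its own, trend and robust variance, array weights, median centring, genes above the median level, only the groups compared, the Gapdh 3' minus 5' difference, the glutamatergic and vascular marker means as covariates, leaving out each array or the 8 arrays of doubtful score, and the title number as a block. Dose and time of the inhibitor were not used here.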

Additional observations from a re-analysis of the deposited data

Results flagged for a closer look

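Within the 64 sets of arrays of 1 member in 1 group, 4 held an array far from the others. Chance alone gives about 1 in 20, so this count was near that rate. Sgk1 read 10.16 on hippocampal WT vehicle 1, against 9.30 to 9.41 on the other 5 arrays of that group. Nfkbia read 10.18 on the same array, against 9.92 to 10.01. Tsc22d3 read 9.53 on striatal KO inhibitor 37, against 9.02 to 9.06 on the other 3. Pdk4 read 7.11 on striatal KO vehicle 29, against 6.55 to 6.65 on the other 4.

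For Zbtb16, every WT inhibitor array lay below the WT vehicle mean in striatum and above it in hippocampus. The striatal minus hippocampal inhibitor effect was -0.71 ± 0.21 in limma, with an adjusted p of 0.124, so the difference between regions did not pass, as for 0 of 8 members, where 0.214% of all genes passed. This contrast was chosen after the values were seen.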

How the results depend on the processing

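Of 2417 values of single members under an alternative, 2248 kept direction and call, 12 lost the call, 6 gained it and 151 turned direction. The share of all genes called under each alternative is not given here. A count of members that rose or fell under an alternative is thus not read as particular to them. Array weights gave 1 call for the inhibitor in WT striatum (Zbtb16) and 5 for WT vehicle striatum against hippocampus, where Fkbp5 (-0.28, adjusted p = 0.0427) and Sgk1 (0.37, adjusted p = 0.0412) joined. Testing only genes above the median level, which leaves out Pdk4, Sult1a1 and Cdkn1a between regions, gave 1 call in WT vehicle (Zbtb16). Over 4 groups it gave 4 (Fkbp5, Sgk1, Tsc22d3 and Zbtb16). No member still tested lost a call there. Leaving out 1 array gave 0 calls in all comparisons within a region, 3 to 4 in WT vehicle between regions and 6 to 7 over 4 groups. Fkbp5 passed in WT vehicle without hippocampal WT inhibitor 13 (-0.25, adjusted p = 0.0231), whose exclusion was chosen after the data were seen. Tsc22d3 was lost over 4 groups with arrays centred on their medians (-0.11, adjusted p = 0.0556), and Sgk1 without the arrays of doubtful score (0.19, adjusted p = 0.094). For deviations by number, 0 members passed without the doubtful numbers, against 1 with all, and r turned for Tsc22d3 (0.33) and Cdkn1a (0.50).

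Of the 151 values that turned direction, 84 left out 1 array and 67 came from other settings, and 0 passed either as reported or under the alternative, so the direction of these 38 results is not settled. The Gapdh gap is the 3' minus 5' probe set difference, and the array with the widest was dropped from each group. For the inhibitor in WT striatum, Fkbp5 was 0.011 as the mean over probe sets, 0.0074 with array weights, 0.024 without the widest Gapdh gaps and 0.067 with the vascular covariate. Cdkn1a was 0.037 as the mean over probe sets, 0.12 with array weights, 0.0080 with centred medians, 0.36 without doubtful arrays, 0.11 without the widest Gapdh gaps and 0.0024 with the Gapdh covariate. Tsc22d3 was 0.020 without doubtful arrays. Sgk1 was -0.078 with the glutamatergic covariate and -0.094 with the vascular covariate. Sult1a1 was -0.042 with the vascular covariate. With 1 array left out the ranges were -0.10 to 0.13 for Cdkn1a, -0.046 to 0.017 for Fkbp5, -0.12 to 0.025 for Tsc22d3 and -0.014 to 0.094 for Sgk1. For the KO label in striatum, Tsc22d3 was 0.034 as the mean over probe sets and 0.028 without doubtful arrays. Sgk1 was -0.086 with array weights, -0.010 without doubtful arrays, -0.064 without the widest Gapdh gaps and -0.048 with the vascular covariate. Sult1a1 was -0.027 with array weights and -0.095 without the widest Gapdh gaps. Nfkbia was -0.0071 with array weights and -0.022 without the widest Gapdh gaps. Zbtb16 was 0.0072 with the vascular covariate. Leave-one-out ranges were -0.083 to 0.11 for Sgk1, -0.091 to 0.051 for Tsc22d3, -0.021 to 0.077 for Nfkbia, -0.013 to 0.078 for Fkbp5, -0.21 to 0.061 for Zbtb16 and -0.040 to 0.18 for Sult1a1. For the inhibitor in labelled KO striatum, Tsc22d3 was -0.010 as the mean over probe sets. Nfkbia was 0.023 as the mean over probe sets. Cdkn1a was 0.031 with array weights, 0.055 without doubtful arrays and 0.044 with the vascular covariate. With 1 array left out the ranges were -0.13 to 0.055 for Cdkn1a, -0.088 to 0.018 for Nfkbia, -0.047 to 0.15 for Tsc22d3 and -0.059 to 0.23 for Sult1a1. For the inhibitor by genotype in striatum, Sult1a1 was -0.010 with array weights, -0.076 without the widest Gapdh gaps, -0.011 with the Gapdh covariate and -0.17 with the vascular covariate. Cdkn1a was -0.041 with the glutamatergic covariate and -0.45 with the vascular covariate. Leave-one-out ranges were -0.056 to 0.18 for Cdkn1a, -0.10 to 0.19 for Sult1a1 and -0.19 to 0.0068 for Tsc22d3. For labelled KO with inhibitor against WT vehicle in striatum, Nfkbia was 0.12 as the mean over probe sets. With 1 array left out the ranges were -0.052 to 0.053 for Nfkbia and -0.060 to 0.13 for Tsc22d3.

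In WT hippocampus with inhibitor, Tsc22d3 was -0.00030 as the mean over probe sets, -0.025 with array weights, -0.014 without the widest Gapdh gaps and -0.035 without array 13. Cdkn1a was -0.011 with the glutamatergic covariate and -0.016 without array 13. Leave-one-out ranges were -0.035 to 0.040 for Tsc22d3, -0.082 to 0.16 for Sgk1, -0.016 to 0.13 for Cdkn1a and -0.020 to 0.21 for Fkbp5. For the KO label in hippocampus, Cdkn1a was -0.011 with array weights, -0.054 without doubtful arrays, -0.0057 with the Gapdh covariate and -0.084 with the glutamatergic covariate. With 1 array left out the range was -0.043 to 0.089 for Cdkn1a. For the inhibitor in labelled KO hippocampus, Nfkbia was -0.025 with array weights and -0.0051 without doubtful arrays. Sgk1 was -0.023 without doubtful arrays. Pdk4 was -0.016 without doubtful arrays. Leave-one-out ranges were -0.010 to 0.13 for Pdk4 and -0.055 to 0.068 for Nfkbia. For the inhibitor by genotype in hippocampus, Nfkbia was -0.084 as the mean over probe sets. Cdkn1a was 0.036 as the mean over probe sets and 0.057 with centred medians. Fkbp5 was 0.066 with array weights, 0.088 with the glutamatergic covariate and 0.042 without array 13. Sgk1 was 0.051 with array weights, 0.074 without doubtful arrays and 0.086 with the glutamatergic covariate. Zbtb16 was -0.0089 without doubtful arrays and -0.0021 with the Gapdh covariate. Sult1a1 was 0.0041 without doubtful arrays. With 1 array left out the ranges were -0.036 to 0.090 for Zbtb16, -0.080 to 0.063 for Cdkn1a, -0.012 to 0.11 for Nfkbia, -0.22 to 0.021 for Sgk1 and -0.19 to 0.042 for Fkbp5. Between regions in WT vehicle, Nfkbia was -0.033 as the mean over probe sets. Between regions over 4 groups, Nfkbia was -0.047 as the mean over probe sets. The causes were not tested.

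Title numbers were not taken to pair the regions, since 6 of 20 same-numbered pairs correlated above 0.1 over all genes and 1 of 20 arrays correlated best with its own number. This check compares different tissues and cannot exclude that same-numbered arrays came from 1 mouse. The main p-values between regions treat all arrays as separate. With the number as a replicate block, 4 members passed in WT vehicle (Fkbp5 added, -0.29, adjusted p = 0.0191) and 7 over 4 groups. The groups within a region share no number, so no paired analysis was possible there.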
